A study of Mus musculus with 11 samples.

Results

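The genes described here are 8 that mark stem and progenitor cells of the stomach: Lgr5, Lgr4, Tnfrsf19, Lrig1, Axin2, Sox2, Runx1 and Bmi1. They were taken from the probe sets that carry a single gene symbol, and where a gene had several, the probe set brightest on average in whole stomach was kept. That left 8 of 22180 measured genes. Lgr5 and Axin2 each had a second probe set, which is given beside the one used. RNA came from whole stomachs of adult C57Bl/6 mice and was read on Affymetrix arrays as log2 expression, so a difference of 1 is a doubling. The values describe arrays, and levels are compared for the same gene between arrays, never between genes.

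The whole-stomach arrays fall into 4 groups that cross tamoxifen with rapamycin, each drug given by daily injection into the peritoneum. The vehicle group received sunflower oil (2 arrays). The tamoxifen group received 5 mg per 20 g of body weight for 3 days (2 arrays). The rapamycin group received 0.6 mg per 20 g for 10 days (3 arrays), and the combined group received rapamycin and tamoxifen at those doses (2 arrays). The labels name no transgene or Cre in any group. A single array held isolated parietal cells, and another the cells that stayed behind when parietal cells were removed, with no replicate of either. The labels call the whole-stomach arrays biological replicates, but the sources used here do not give the number of mice behind each, so the p-values measure the spread between these arrays. In whole tissue, fewer cells of a type and less RNA per cell cannot be told apart.

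Vehicle 2 and tamoxifen 2 carried exactly the same deposited value in 7093 of 41345 probe sets (17.2%), whereas each of the other 35 pairs of whole-stomach arrays shared at most 58. Either of these 2 arrays paired with any of the other 7 shared 0 or 1. Pairs among those 7 shared 12 to 58. The lowest 0.1% of values ended at 1.58 and 1.57 on these 2 arrays and at 1.32 to 1.37 on the other 7. Of the 8 markers, 4 were identical on vehicle 2 and tamoxifen 2, namely Lgr5, Lrig1, Runx1 and Bmi1. For these genes, the second pair of arrays entered the tamoxifen comparison with a difference of exactly 0. What made the values identical was not tested. Fits with the 2 arrays as a batch of their own, or left out, are given beside the markers' results whose calls they moved and beside the gene lists' counts. With them left out, vehicle and tamoxifen have 1 array each, and the spread comes from the rapamycin and combined groups alone. The array medians lay between 4.95 and 5.09 in whole stomach.

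Several of these genes belong to Wnt signalling. Lgr5 and Lgr4 are receptors for R-spondins, secreted proteins that keep Wnt receptors at the cell surface and so strengthen the Wnt signal. Axin2 is a scaffold of the complex that destroys beta-catenin and is itself switched on by Wnt, which makes it a reporter of the pathway. Lgr5 marks cells at the base of antral glands and some chief cells of the corpus, and Tnfrsf19, also called Troy, marks a subset of corpus chief cells that can act as reserve stem cells. Lrig1 is a membrane protein that restrains ErbB receptors and marks progenitors in several epithelia. Sox2 and Runx1 are transcription factors used to trace gastric stem cells, and Bmi1 is a subunit of Polycomb repressive complex 1. Tamoxifen at high dose damages the acid-secreting parietal cells and is followed by proliferation in the gland, and rapamycin blocks the growth kinase mTORC1.

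Tnfrsf19 rose with tamoxifen and was the only one of the 8 markers to pass the test (limma, adjusted p under 0.05) in any comparison. Its promoter windows are shown because it is the member on which the results turn. RefSeq on build GRCm38.p6 gives it 2 start sites, both on the minus strand of chromosome 14, and the 250 bases before each are printed 5' to 3', with capitals marking a TCF/LEF core match.
Tnfrsf19, chr14:61037988-61038237: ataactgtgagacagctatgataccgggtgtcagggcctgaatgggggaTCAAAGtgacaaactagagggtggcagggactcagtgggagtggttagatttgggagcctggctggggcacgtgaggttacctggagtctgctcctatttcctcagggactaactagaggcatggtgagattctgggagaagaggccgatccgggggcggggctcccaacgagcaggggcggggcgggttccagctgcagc
Tnfrsf19, chr14:61046856-61047105: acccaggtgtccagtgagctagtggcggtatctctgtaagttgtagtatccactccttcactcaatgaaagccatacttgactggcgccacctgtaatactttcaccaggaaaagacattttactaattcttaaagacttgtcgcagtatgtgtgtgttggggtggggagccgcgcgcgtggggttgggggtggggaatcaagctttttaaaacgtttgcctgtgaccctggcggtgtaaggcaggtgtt
Both strands were searched for CTTTGA (the core bound by TCF/LEF factors of the Wnt pathway), TTTNNCGC (E2F), TGTGGT (RUNX) and AGGTCA (an oestrogen receptor half-site). The first window held CTTTGA once, on the strand opposite the gene, 196 to 201 bases before the start, where it reads TCAAAG. The second held none of the 4 motifs. CTTTGA occurs in 13.8% of all 32851 promoter windows of this length, so the match is a description and no evidence of binding.

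Tnfrsf19 (probe set 17307433) read 7.24 and 6.88 on the vehicle arrays and 8.15 and 8.16 on the tamoxifen arrays. It read 7.39, 7.40 and 7.24 after rapamycin and 8.06 and 7.88 after both drugs. All 4 arrays with tamoxifen were higher than all 5 without it. Tamoxifen against vehicle gave a log2 change of 1.09 ± 0.16 (standard error of the fit), a 2.13-fold rise with a limma adjusted p of 0.0169. It was the only marker of 8 called in that comparison, beside a background of 1.72% of all genes called in either direction and 0.933% called higher. It was also the only marker whose 2 groups did not overlap, against 27.3% of all genes. By replicate number, the rise was 0.90 between the first pair of arrays and 1.28 between vehicle 2 and tamoxifen 2. With those 2 arrays as a batch, the adjusted p was 0.00745. The call was lost without vehicle 2 (0.91, adjusted p = 0.0602), without tamoxifen 1 (adjusted p = 0.0545), without tamoxifen 2 (adjusted p = 0.0574), with both number 2 arrays left out (1 array against 1, 0.90, adjusted p = 0.0998) and with the spread taken from the 4 arrays compared (adjusted p = 0.30). A group left with 1 array is assumed to vary like the others.

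Among mice that also received rapamycin, Tnfrsf19 was higher with tamoxifen by 0.63 ± 0.15, or 1.55-fold, which did not pass the test (95% interval 0.30 to 0.96, limma adjusted p = 0.0686). It passed with vehicle 2 and tamoxifen 2 as a batch (adjusted p = 0.0262) or left out (adjusted p = 0.0318), or without either vehicle array (adjusted p = 0.0414). None of these arrays is in this comparison, and they enter it through the shared spread. By the fit over all 9 arrays none of the 8 markers was called there, beside 2.45% of all genes, and 2 had an unadjusted p under 0.05, beside 13.9% of genes. Averaged over both rapamycin states, tamoxifen raised Tnfrsf19 by 0.86 ± 0.11, or 1.82-fold (adjusted p = 0.00236). In that comparison 1 of 8 markers was called, beside 5.85% of all genes, 3.24% called higher and 2.61% called lower. The averaged rise passed in each of the 9 fits that left out 1 array, at 0.77 to 0.95, and with both number 2 arrays left out (0.77, adjusted p = 0.0108).

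The rise in Tnfrsf19 was not shown to differ with rapamycin. The interaction was -0.46 ± 0.22 (95% interval -0.96 to 0.03, limma adjusted p = 1.0), and limma called 0 of 22180 genes (0%) for it, with 627 at an unadjusted p under 0.05. Against vehicle, which serves as control in several of these comparisons, the combination raised Tnfrsf19 by 0.91 ± 0.16 (1.88-fold, adjusted p = 0.0369). That was 1 of 8 markers called, beside 1.15% of all genes. The call was kept in 2 of the 9 fits without 1 array, those without a tamoxifen array. It was lost without either vehicle array, any rapamycin array or either combined array (adjusted p up to 0.317), with both number 2 arrays left out (0.73, adjusted p = 0.0961) and with the spread taken from the 4 arrays compared (adjusted p = 0.102). It was also lost with the mean of forestomach genes as a covariate (0.84, adjusted p = 0.355). That mean was 4.46 to 4.83 on the vehicle arrays and 8.53 to 8.88 on the combined arrays. The covariate and the treatment therefore cannot be told apart for these 2 groups.

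**Figure D1:**
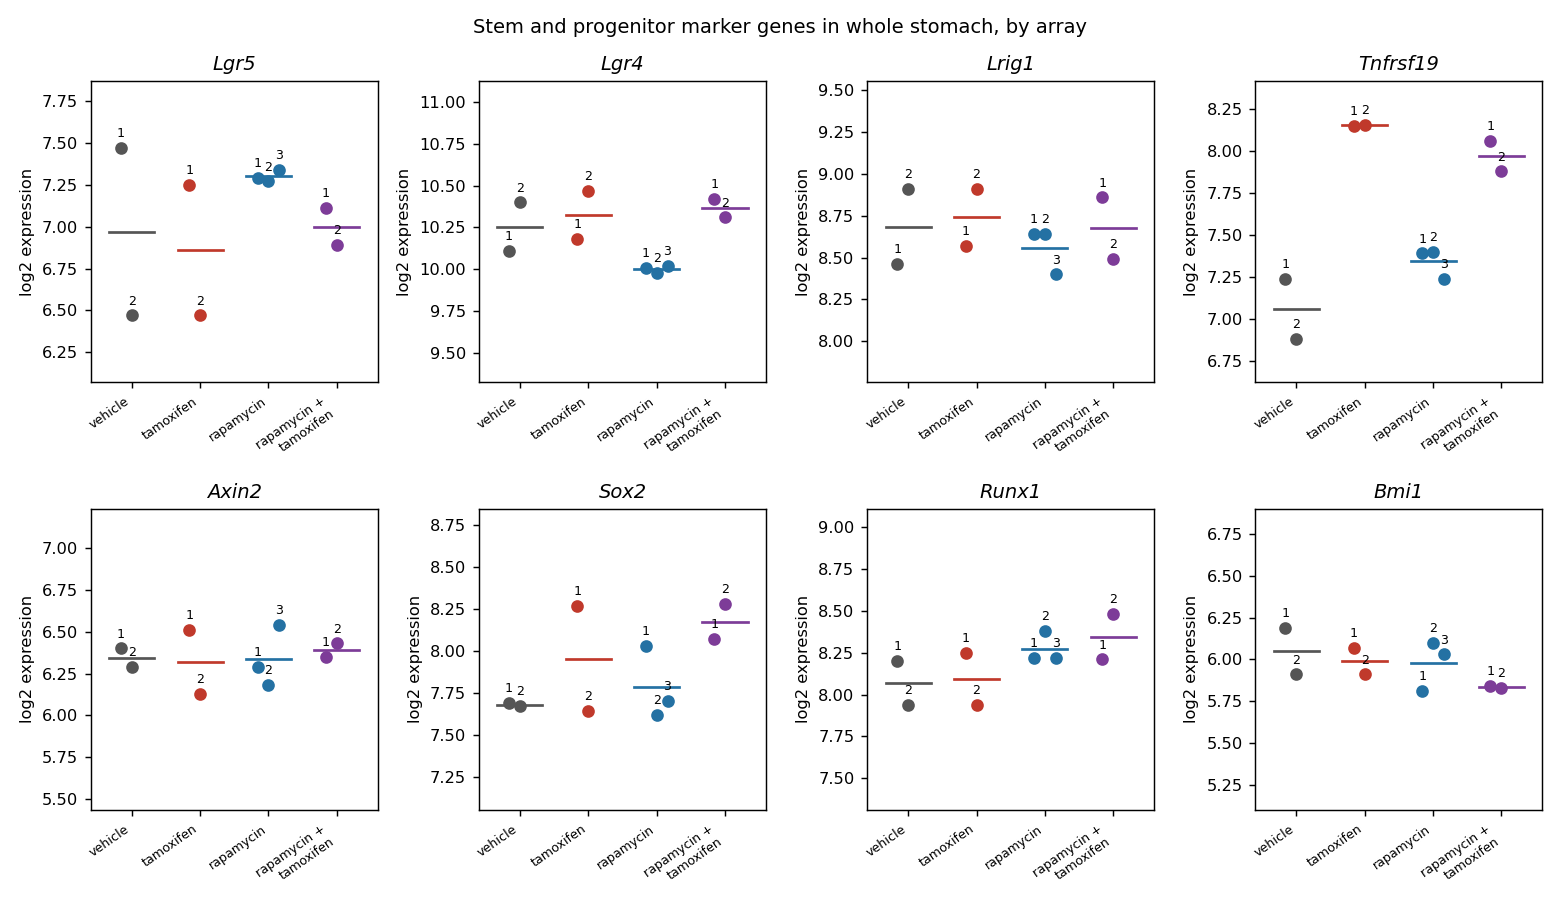
Log2 expression of each marker on the 9 whole-stomach arrays, 1 panel per gene, with points numbered by replicate, lines at the group means and the same axis length in every panel. Tnfrsf19 reads 7.88 to 8.16 on the arrays with tamoxifen and 6.88 to 7.40 on those without, while Lgr5 reads 6.47 on both vehicle 2 and tamoxifen 2.

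Tnfrsf19 also had the widest range of the 8 over the whole-stomach arrays, 1.28, against a median of 0.65 over all genes. The other 7 spanned 0.38 (Bmi1) to 0.996 (Lgr5). The 3 genes whose array-by-array pattern was nearest to that of Tnfrsf19 were Cdt1, Rrp1b and Skp2, measured as the root mean square difference over the 9 arrays after each gene was centred on its mean. That difference was 0.0719 for Cdt1, a DNA replication licensing factor, 0.108 for Rrp1b, a nucleolar protein, and 0.111 for Skp2, a subunit of a ubiquitin ligase. Tnfrsf19 itself deviated from its own mean by 0.444 on this measure. The genes were chosen for likeness on these same arrays, so their changes are given as a description. Averaged over rapamycin, Cdt1 was higher with tamoxifen by 0.84, Rrp1b by 0.89 and Skp2 by 0.69.

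**Figure D2:**
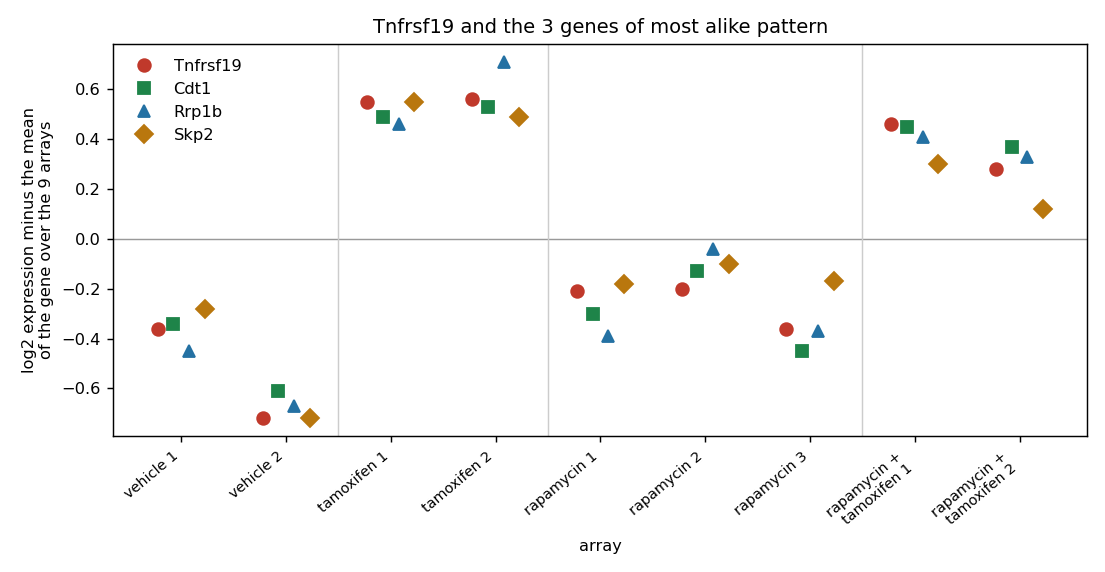
Log2 expression minus the mean of the gene over the 9 whole-stomach arrays, for Tnfrsf19 and the 3 genes of most alike pattern. All 4 genes lie above 0 on the arrays with tamoxifen and below 0 on the other 5; Tnfrsf19 runs from -0.72 on vehicle 2 to 0.56 on tamoxifen 2.

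Genes of the cell cycle, chief cells and parietal cells also moved with tamoxifen, though not every cell type list did. The mean log2 value of 22 cell cycle genes was 7.41 and 7.37 in vehicle, 8.38 and 8.47 after tamoxifen, 7.04 to 7.13 after rapamycin, and 8.15 and 8.01 after both. All 22 were called higher by limma with tamoxifen averaged over rapamycin, beside 3.24% of all genes. Their median was 0.99, against -0.02 over all genes. Among them were the topoisomerase Top2a at 1.39 ± 0.13 (adjusted p = 7.23e-04) and the survivin gene Birc5 at 1.38 ± 0.09 (adjusted p = 2.56e-04). Of 7 measured chief cell genes, 4 were called lower in that comparison, beside 2.61% of all genes, and none higher (median -0.89). Their mean went from 10.80 and 10.78 in vehicle to 9.47 and 9.57 after tamoxifen. Of 14 parietal cell genes, 11 were called lower (median -0.96), with means of 9.62 and 9.66 in vehicle and 8.46 and 8.91 after tamoxifen. None of 8 pit mucous or 7 tuft cell genes was called in that comparison (medians 0.02 and -0.19). Of 13 leukocyte and macrophage genes, 3 were called higher and none lower (median 0.19). Of 8 neck mucous and metaplasia genes, 1 was called higher and 1 lower (median 0.52). None of 13 squamous genes was called, with a median of 1.6. The 4 arrays with tamoxifen had the highest Tnfrsf19 readings and cell cycle means, and the lowest chief cell and parietal cell means. These orders follow from the split by treatment and show no link between single arrays. The counts of 22, 4 and 11 were the same with the number 2 arrays left out or as a batch. The part of cell composition in the Tnfrsf19 rise was not tested.

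The R-spondin receptors did not pass the test in any comparison. Lgr5 (probe set 17245059) read 7.47 and 6.47 in vehicle and 7.25 and 6.47 after tamoxifen. It read 7.29, 7.27 and 7.34 after rapamycin and 7.11 and 6.89 after both drugs. The 2 lowest of the 9 values were those of vehicle 2 and tamoxifen 2, equal to the last deposited digit, so each of those groups spanned most of the gene's range. Tamoxifen against vehicle gave -0.11 ± 0.33 (95% interval -0.85 to 0.63, limma adjusted p = 0.986), the widest interval of the 8 markers. With the number 2 arrays as a batch, the estimate stayed at -0.11 and its standard error was 0.12 (adjusted p = 0.710).

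In the mice given rapamycin, Lgr5 was lower with tamoxifen on both arrays, without overlap, by -0.30 ± 0.30 (adjusted p = 0.777). The second Lgr5 probe set (17237400) did not show this. It read 5.03, 4.70 and 5.15 after rapamycin and 4.84 and 4.98 after both drugs, which overlap. On it vehicle 2 and tamoxifen 2 read 4.76 and 4.73, near vehicle 1 and tamoxifen 1 at 4.96 and 4.81. Vehicle 2 lay below vehicle 1 by 0.996 on the brighter probe set, and the gap was smaller on the second. All readings of the second probe set, 4.70 to 5.15, lay near the array medians of 4.95 to 5.09. Differences can be compressed at that level, so it is a weak check on the brighter one.

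Lgr4 (probe set 17374098) spanned 0.49 over the 9 arrays. It read 10.11 and 10.40 in vehicle, 10.18 and 10.47 after tamoxifen, 10.01, 9.98 and 10.02 after rapamycin, and 10.42 and 10.31 after both. The 3 rapamycin arrays were the lowest of the 9. Between the combination and rapamycin alone the difference was 0.36 ± 0.14 (95% interval 0.04 to 0.69), with a limma adjusted p of 0.299. With the number 2 arrays as a batch the adjusted p was 0.0563. Of the 8 markers, 4 had groups that did not overlap in this comparison (Lgr5, Lgr4, Tnfrsf19 and Sox2), beside 39.1% of all genes. Tamoxifen against vehicle gave 0.07 ± 0.16 for Lgr4 (95% interval -0.29 to 0.42, adjusted p = 0.977).

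Lrig1 and Axin2, both brakes on signalling, showed no called change. Lrig1 (probe set 17469217) read 8.46 and 8.91 in vehicle, 8.57 and 8.91 after tamoxifen, 8.64, 8.64 and 8.40 after rapamycin, and 8.86 and 8.49 after both. Every group overlapped every other. Its change with tamoxifen averaged over rapamycin was 0.08 ± 0.14 (95% interval -0.24 to 0.41, limma adjusted p = 0.850). Axin2 (probe set 17257801) read 6.40 and 6.29 in vehicle, 6.51 and 6.13 after tamoxifen, 6.29, 6.18 and 6.54 after rapamycin, and 6.35 and 6.43 after both. The spread within the tamoxifen and rapamycin groups was wider than any difference between group means, which ran from 6.32 to 6.39. Averaged over rapamycin, Axin2 differed by 0.01 ± 0.12 with tamoxifen (95% interval -0.26 to 0.28, adjusted p = 0.982). On its second probe set (17271197) the same difference was -0.19, also not called.

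Sox2 had its highest readings on arrays rich in forestomach genes. Its promoter window on chromosome 3 (plus strand, GRCm38.p6, RefSeq) is shown because it held the only oestrogen receptor half-site found among the markers' windows, and tamoxifen is a ligand of that receptor. Capitals mark the match, which reads TGACCT on the gene's strand, 239 to 244 bases before the start.
Sox2, chr3:34649745-34649994: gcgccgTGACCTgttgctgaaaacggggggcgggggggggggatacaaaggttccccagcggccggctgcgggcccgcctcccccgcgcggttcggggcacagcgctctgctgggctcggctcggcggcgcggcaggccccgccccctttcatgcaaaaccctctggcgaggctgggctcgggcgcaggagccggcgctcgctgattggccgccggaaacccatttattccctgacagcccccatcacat
The half-site occurs in 14% of all windows, so this match, too, is a description and no evidence of binding. Of the 8 markers, 7 had an entry in the promoter table, with 9 windows in all. No window other than those of Sox2 and the first of Tnfrsf19 held any of the 4 motifs.

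Sox2 (probe set 17396878) read 7.69 and 7.67 in vehicle and 8.27 and 7.64 after tamoxifen. It read 8.03, 7.62 and 7.70 after rapamycin and 8.07 and 8.28 after both drugs. The difference with tamoxifen averaged over rapamycin was 0.33 ± 0.15 (95% interval -0.01 to 0.68, limma adjusted p = 0.303), and that of the combination against vehicle was 0.49 ± 0.22 (adjusted p = 0.380). The mean of 13 squamous genes, which mark the forestomach lining, was 4.83 and 4.46 in vehicle and 9.32 and 4.46 after tamoxifen. It was 9.26, 8.04 and 5.14 after rapamycin and 8.53 and 8.88 after both. The 4 arrays with the highest squamous means had the 4 highest Sox2 readings, 8.03 to 8.28, and the array with the fifth highest, rapamycin 2, had the lowest Sox2 reading, 7.62. With the squamous mean as a covariate the averaged difference was 0.16 ± 0.13 (adjusted p = 0.651), and that of the combination against vehicle was 0.08. The squamous mean was low on both vehicle arrays and high on both combined arrays. For these 2 groups the covariate and the treatment therefore cannot be told apart, and the part of forestomach tissue was not tested. Sox2 is made in the squamous forestomach as well as in glands, and whole-stomach arrays cannot separate the sources.

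**Figure D3:**
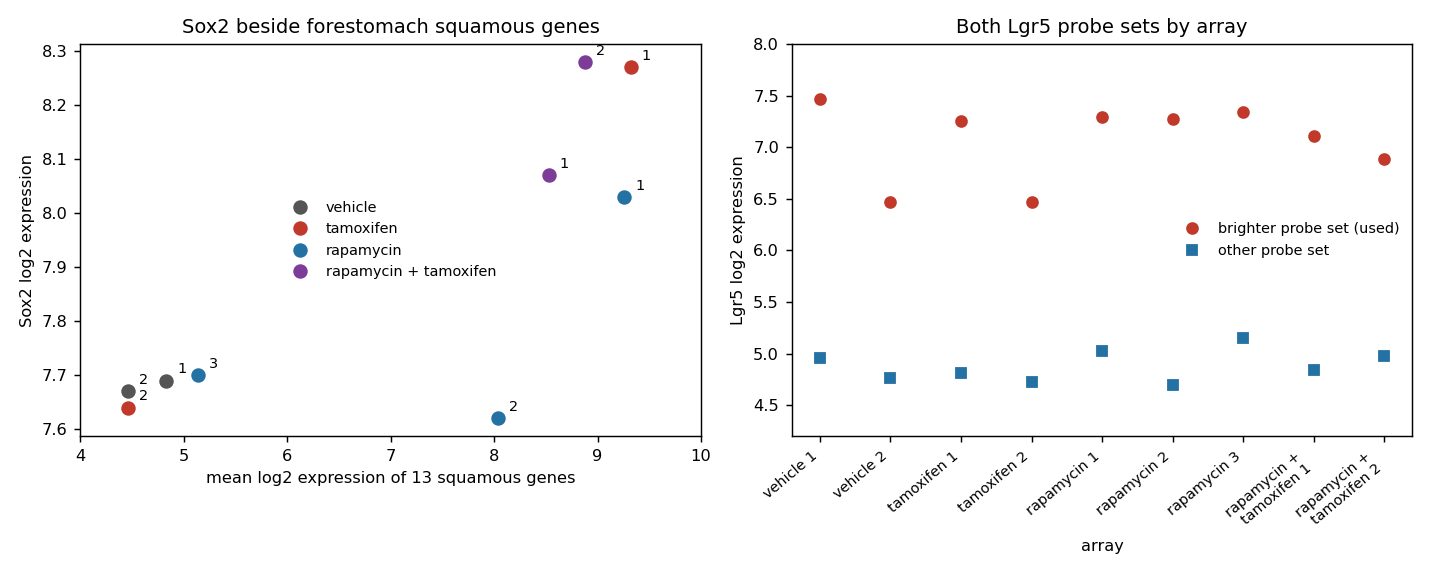
Left, Sox2 log2 expression against the mean log2 expression of 13 squamous genes on each whole-stomach array; right, both Lgr5 probe sets by array. Sox2 reads 8.03 to 8.28 on the 4 arrays with the highest squamous means, and the brighter Lgr5 probe set drops to 6.47 on vehicle 2 and tamoxifen 2 where the other reads 4.76 and 4.73.

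Runx1 and Bmi1 also had no called change. Runx1 (probe set 17332236) read 8.20 and 7.94 in vehicle, 8.25 and 7.94 after tamoxifen, 8.22, 8.38 and 8.22 after rapamycin, and 8.21 and 8.48 after both. The vehicle arrays lay below all arrays given rapamycin, with or without tamoxifen. Rapamycin against vehicle gave 0.20 ± 0.16 (95% interval -0.15 to 0.56, limma adjusted p = 0.671). With the number 2 arrays as a batch this was 0.06 ± 0.13. Runx1 is also made by blood cells, mast cells included: the mean of 8 mast cell genes was 7.16 and 7.75 in vehicle and 5.67 to 5.79 after rapamycin. Other blood cell lists differed less. The mean of 13 leukocyte and macrophage genes was 6.46 to 6.5 in vehicle and 6.3 to 6.46 after rapamycin. For 9 T and B cell genes it was 4.55 to 4.56 and 4.34 to 4.43. The part of these cells in the Runx1 readings was not tested. Bmi1 (probe set 17367295) read 6.19 and 5.91 in vehicle, 6.07 and 5.91 after tamoxifen, 5.81, 6.10 and 6.03 after rapamycin, and 5.84 and 5.83 after both. The combined group was below vehicle and below tamoxifen alone, without overlap, by -0.22 ± 0.16 (adjusted p = 0.593) and -0.16 ± 0.16 (adjusted p = 0.842). Of the 8 markers, 4 did not overlap between the combination and vehicle, beside 44.1% of all genes.

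Rapamycin alone moved none of the 8 markers past the test, beside 0.0496% of all genes called. The groups did not overlap for 2 of them, Lgr4 and Runx1, beside 27% of genes. The largest estimates were 0.33 ± 0.30 for Lgr5, 0.28 ± 0.15 for Tnfrsf19 and -0.25 ± 0.14 for Lgr4. For Lgr5 the estimate turned to -0.11 with the number 2 arrays as a batch and to -0.17 with them left out. Tnfrsf19 gave a 95% interval of -0.05 to 0.61 (limma adjusted p = 0.592). Adding rapamycin to tamoxifen gave 0 called genes among all 22180 with limma (0%), and 1257 (5.67%) at an unadjusted p under 0.05. None of the 8 markers reached that level. Tnfrsf19 differed by -0.18 ± 0.16 in that comparison (95% interval -0.55 to 0.18), with the combined arrays below the tamoxifen arrays. It and Bmi1 were the 2 of 8 markers without overlap there, beside 36.4% of all genes. Sox2 differed by 0.22 ± 0.22, Runx1 by 0.25 ± 0.17 and Lgr5 by 0.14 ± 0.33.

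**Figure D4:**
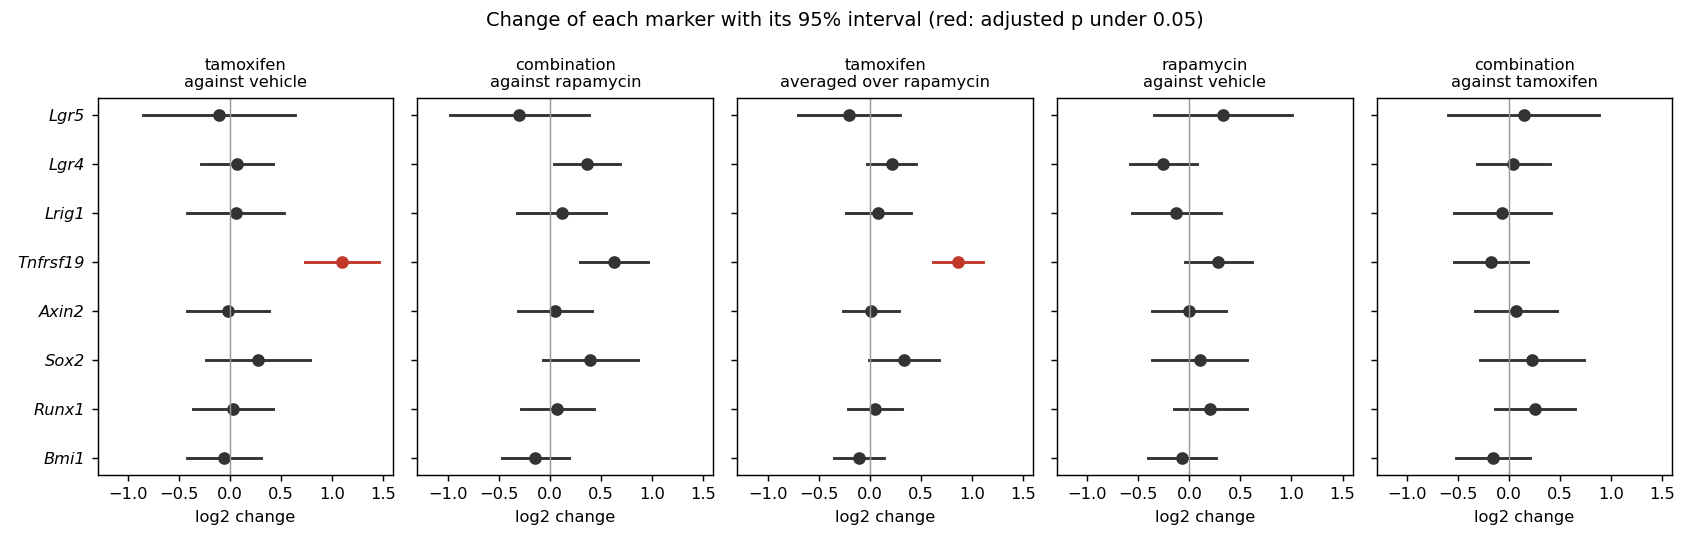
Log2 change of each marker in 5 comparisons, with limma's 95% interval; red marks an adjusted p under 0.05. Tnfrsf19 is called for tamoxifen against vehicle (1.09) and for tamoxifen averaged over rapamycin (0.86), and the intervals of Lgr5 are the widest.

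The wider Wnt pathway gave few calls for tamoxifen averaged over rapamycin, a comparison in which 3.24% of all genes were called higher and 2.61% lower. Those shares, with the number 2 arrays as a batch, were 7.02% and 5.51%, and with them left out 3.72% and 3.48%. Of 15 Wnt receptors, 1 fell: Fzd4, a frizzled receptor, by -0.73 ± 0.11 (limma adjusted p = 0.00551). Of 13 measured Wnt target genes, 2 rose, the cyclin gene Ccnd1 by 0.65 ± 0.10 (adjusted p = 0.00655) and the growth regulator Myc by 0.83 ± 0.15 (adjusted p = 0.0139). The median over these targets was -0.11, against -0.02 over all genes, so the list's median did not shift upward. With the number 2 arrays as a batch, 3 targets were called higher and 2 lower, and 2 receptors lower. With them left out, 3 targets were called higher and 1 receptor lower. At 1 of 15, the receptors' count is too small to set apart from the share of all genes. Without combined array 1 or 2, the call on Myc was lost (adjusted p = 0.0698 and 0.0604). None of 17 Wnt ligands and R-spondins, 13 measured transducers or 9 antagonists was called. The smallest p among them belonged to Wnt9a (-0.37 ± 0.11, adjusted p = 0.0912) and, among the antagonists, to Sfrp5 (-0.48 ± 0.17, adjusted p = 0.174). Both passed with the number 2 arrays as a batch (adjusted p = 0.0392 and 0.0291), each the only gene of its list called, and 1 antagonist was called lower with those arrays left out.

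Of 22 other progenitor markers, 1 rose and 1 fell with tamoxifen averaged over rapamycin, beside 3.24% of all genes called higher and 2.61% lower. That count is near the shares of all genes in this fit, but not in the batch fit given below. Iqgap3, a scaffold protein of cycling isthmus cells, rose by 0.74 ± 0.10 (limma adjusted p = 0.00356), and Bhlha15 (Mist1), the transcription factor of mature zymogenic chief cells, fell by 0.89 ± 0.14 (adjusted p = 0.00609). Both calls were kept in all 9 fits without 1 array. Under the batch fit, 6 of the 22 were called higher and 4 lower, beside 7.02% and 5.51% of all genes, and with them left out 2 and 2. Among the families of single members, 1 of 5 measured genes of the Runx family and its partners fell, the corepressor Runx1t1, by -0.85 ± 0.19 (adjusted p = 0.035), a call kept in 3 of 9 fits without 1 array (adjusted p up to 0.136 without combined array 2). It was lost without vehicle 1, tamoxifen 2, rapamycin 1, rapamycin 2 or either combined array. Under the batch fit, and with the number 2 arrays left out, 1 gene of this family was called higher and 2 lower. Of 12 measured foregut transcription factors, 1 rose, Sox21, by 0.44 ± 0.10 (adjusted p = 0.0392), kept only without vehicle 2 and lost in the other 8 fits without 1 array (adjusted p up to 0.156). With arrays centred on their medians its adjusted p was 0.0720, and over the mean of its probe sets the change was 0.22 (adjusted p = 0.307). Under the batch fit, 1 foregut factor was called higher and 1 lower, and with them left out 1 higher. None of 13 measured genes of Polycomb repressive complex 1 was called, and none of the 6 genes of the Lrig and ErbB families. The nearest were Pcgf6 at 0.52 ± 0.15 (adjusted p = 0.0926, and 0.00994 with the number 2 arrays as a batch) and Lrig3 at 0.19 ± 0.10 (adjusted p = 0.396). In the Polycomb list 1 gene was called higher with the number 2 arrays as a batch or left out, and in the Lrig and ErbB list none was under either fit.

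The 2 cell fractions, with 1 array each and so no test, placed Sox2 and Lrig1 on opposite sides. Their labels were checked first. Atp4a, a subunit of the acid pump, read 12.58 in the parietal array and 8.03 in the remaining cells, and 11 of 14 parietal genes were at least 1 log2 unit higher in the parietal array, beside 6.32% of all genes. The mucous neck gene Muc6 read 4.62 and 8.70. The chief cell gene Pgc read 10.67 in the parietal array and 12.9 in the remaining cells, and the pit cell gene Gkn1 11.73 and 13.1. Both were lower in the parietal array but far above the array medians in each. How much RNA of other cell types the parietal array held was not tested, so its readings are not those of parietal cells alone. The squamous gene Trp63 read 3.48 and 3.62 and the smooth muscle gene Myh11 4.05 and 3.91, near the array medians of 3.67 and 3.68 in both. Of 13 squamous genes, 2 were at least 1 log2 unit lower in the parietal array (lowest -2.67), beside 6.46% of all genes. Whether squamous cells were present in either fraction was not tested. The leukocyte gene Ptprc read 2.84 in the parietal array and 5.65 in the remaining cells. These arrays had lower medians than the whole stomachs and were set only against each other. They shared an identical value in 1918 of 41345 probe sets (4.64%).

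Sox2 read 2.99 in parietal cells and 5.93 in the remaining cells, a log2 difference of -2.94, and 0.807% of genes had a difference further in that direction. The parietal reading lay below that array's median of 3.67, and the table has no measure of background, so no fold is given. Lrig1 ran the other way, at 7.62 in parietal cells and 6.28 in the remaining cells, 2.54-fold higher, above 96.7% of genes. These were the 2 of 8 markers at least 1 log2 unit apart, beside 12.8% of all genes. Lgr4 read 7.78 and 8.23, Runx1 6.28 and 6.31, and Bmi1 4.47 and 4.33, each close between the fractions. Tnfrsf19 read 4.11 and 3.73, Lgr5 3.53 in both to the last deposited digit, and Axin2 3.83 and 3.49. These lay near the array medians, and the second Axin2 probe set read 3.21 and 3.89, the opposite order. Of the genes named above, Fzd4 read 7.94 in parietal cells and 6.79 in the remaining cells, and Runx1t1 7.14 and 4.38. Both fell in whole stomach with tamoxifen, as did 11 of the 14 parietal genes. Rrp1b, at 5.33 in parietal cells and 4.08 in the remaining cells, rose with tamoxifen by 0.89, averaged over rapamycin. Lrig1, also higher in the parietal array, had no called change in whole stomach. The part of parietal cells in these changes was not tested. Of the 22 cell cycle genes, 12 were at least 1 log2 unit lower in parietal cells, beside 6.46% of all genes, and none was higher by as much.

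**Figure D5:**
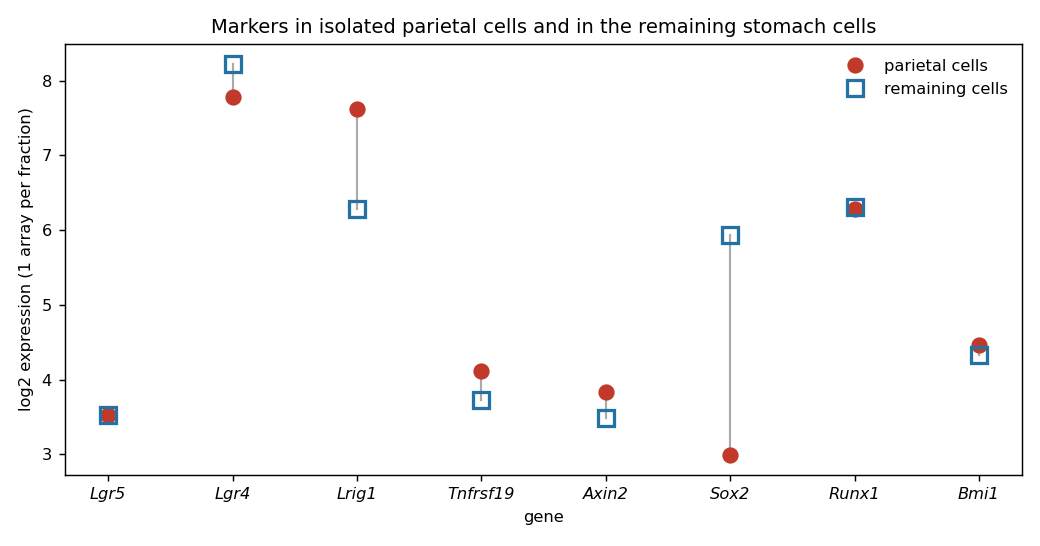
Log2 expression of the 8 markers on the single array of isolated parietal cells (filled circles) and the single array of remaining stomach cells (open squares). Sox2 is at 2.99 and 5.93 and Lrig1 at 7.62 and 6.28, while the other 6 markers differ by at most 0.45.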

How the data were processed

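The authors deposited log2 values from RMA, run in Partek per the submitters' processing notes, and the sources used here give no version, array build or normalization setting. Per the labels' protocols, RNA was purified on RNeasy columns, amplified with RiboAmp HS and labelled with biotin. Whether all whole-stomach arrays were normalized in a single run is not stated. Probe sets were named through the platform's table, of which 23521 had 1 gene symbol, 1814 several and 16010 none, and no filter on dim probe sets was set. With limma 3.58.1 (R 4.3.3), group means and a shared spread were fitted over the 9 whole-stomach arrays and all 22180 genes (5 residual degrees of freedom, prior 3.86). Calls were made at an adjusted p under 0.05 (Benjamini-Hochberg). Errors after ± are limma standard errors, and the number of arrays limits the precision. The fitting was tested on simulated data.

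The 8 markers and all gene lists were chosen with earlier results of these data known. Besides the markers, the text names, from each list, up to 4 called genes of largest change or the 2 of smallest p where none was called, and the 3 genes nearest in pattern to any marker with a range of at least 1. Some of these are given by count only. Fraction genes named beyond the markers are label checks or genes already named. The promoter sequences are RefSeq's (GRCm38.p6). Alternatives covered normalization, probe set choice, filtering, the spread estimate, a forestomach covariate, a replicate block and each array left out. Fits with the second probe sets, without vehicle 2 and tamoxifen 2, and with these as a batch were added after seeing the data.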

Additional observations from a re-analysis of the deposited data

How the results depend on the processing

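Tnfrsf19 for tamoxifen averaged over rapamycin passed the test under every alternative run. The number of the 8 markers called went from 1 to 0 against vehicle, both for tamoxifen and for the combination, when only the groups compared were fitted or when vehicle 2 and tamoxifen 2 were both left out. The combination against vehicle also went to 0 with the squamous covariate. For the combination against rapamycin it went from 0 to 1 with a filter on dim probe sets, with a trended and robust spread, with only the groups compared, and with vehicle 2 and tamoxifen 2 left out or as a batch. Leaving out 1 array in turn gave 0 to 1 for these 3 comparisons, and a group left with 1 array is assumed to vary like the others. With so few arrays, changes the size of those of the other 7 markers could not be resolved, and the table holds no measure of signal over background.

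The replicate numbers were not treated as pairing the arrays. Deviations of same-numbered arrays correlated at 0.56 between vehicle and tamoxifen but at -0.11 to 0.41 between the other groups. With a replicate block, tamoxifen against vehicle had 170 genes called, with 260 for the combination against rapamycin, 149 for the combination against vehicle (and 0 of the 8 markers) and 1 for the interaction. With this block Tnfrsf19 stayed called for tamoxifen averaged over rapamycin (0.84, limma adjusted p = 0.00999) and its adjusted p for the combination against vehicle was 0.0655.

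Over all genes, 381 were called for tamoxifen against vehicle. That became 711 with the dim filter, 202 with the squamous covariate, 105 without vehicle 2 and tamoxifen 2, 1040 with them as a batch, 0 with only the groups compared, and 95 to 213 without 1 array. For the combination against rapamycin, 543 became 865 with the dim filter, 1102 with only the groups compared or without the 2 arrays, 1480 with the batch, and 39 to 643 without 1 array. Tamoxifen averaged over rapamycin went from 1298 to 2779 with the batch and 613 to 1452 without 1 array. Rapamycin against vehicle went from 11 to 7 with only the groups compared, 4 with the covariate, 1 without the 2 arrays, and 3 to 20 without 1 array. The combination against tamoxifen went from 0 to 2 without the 2 arrays and 0 to 1 without 1 array. The combination against vehicle went from 254 to 436 with the dim filter, 10 with the covariate, and 17 to 376 without 1 array. Beyond the differences in arrays and genes tested, the cause of these shifts was not tested.

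Some uncalled differences changed sign. For tamoxifen against vehicle, Axin2 was 0.11 without the 2 arrays, and Runx1 was -0.04 with quantile normalization and -0.08 with the covariate. For the combination against rapamycin, Axin2 was 0.00 with the mean of its probe sets and -0.06 on the second. Averaged over rapamycin, Axin2 was -0.02 with quantile normalization, -0.09 with the mean of probe sets, -0.19 on the second and -0.01 with the covariate, and Runx1 was -0.03 with the covariate. For rapamycin against vehicle, Lgr5 was -0.17 without the 2 arrays and -0.11 with the batch, Lrig1 0.10 and 0.07, and Sox2 -0.19 with the covariate and -0.06 with the batch. For the combination against tamoxifen, Lgr5 was -0.02 with the covariate, -0.25 without the 2 arrays and -0.30 with the batch. Lrig1 was 0.01 with quantile normalization, 0.10 without the 2 arrays and 0.13 with the batch. Axin2 was -0.12 without the 2 arrays and -0.05 with the batch, and Sox2 was -0.10 without the 2 arrays.

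Without 1 array in turn, tamoxifen against vehicle ran from -0.61 to 0.39 for Lgr5, -0.08 to 0.21 for Lgr4, -0.17 to 0.28 for Lrig1, -0.22 to 0.17 for Axin2, -0.04 to 0.59 for Sox2, -0.13 to 0.18 for Runx1 and -0.20 to 0.08 for Bmi1. The combination against rapamycin ran from -0.07 to 0.30 for Lrig1, -0.03 to 0.15 for Axin2 and -0.06 to 0.21 for Runx1. The averaged difference ran from -0.45 to 0.04 for Lgr5, -0.03 to 0.20 for Lrig1, -0.08 to 0.11 for Axin2 and -0.03 to 0.13 for Runx1. Rapamycin against vehicle ran from -0.17 to 0.83 for Lgr5, -0.35 to 0.10 for Lrig1, -0.11 to 0.07 for Axin2, -0.02 to 0.18 for Sox2 and -0.21 to 0.07 for Bmi1. The combination against tamoxifen ran from -0.25 to 0.53 for Lgr5, -0.11 to 0.19 for Lgr4, -0.26 to 0.12 for Lrig1, -0.12 to 0.26 for Axin2 and -0.10 to 0.54 for Sox2.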
